A study of Mus musculus with 12 samples.

Results

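Bone morphogenetic protein (BMP) signalling and its Id target genes were followed in spinal cord of wild-type and Olig2cre/DA-Cat mice. The Olig2cre/DA-Cat mice carry a dominant-active β-catenin. The 10 genes were chosen by name: the ligands Bmp2, Bmp4 and Bmp7, the type I receptors Bmpr1a and Bmpr1b, the antagonist Nog, and Id1, Id2, Id3 and Id4. Every probe set annotated to one of these symbols alone was taken, which gave 23 of the 45101 probe sets on the array. For tests at the gene level, each gene was represented by its brightest probe set, so the members were 10 of the 18194 genes measured.

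Total RNA of spinal cord was hybridised to 12 one-colour Affymetrix 3' arrays, with 3 biological replicates in each of 4 groups. The groups were wild-type mice at day 4, Olig2cre/DA-Cat mice at day 4, wild-type mice at day 15 and Olig2cre/DA-Cat mice at day 15. In Olig2cre/DA-Cat mice the Cre recombinase is expressed from Olig2, and DA-Cat is the dominant-active β-catenin. Wild-type animals were littermates in the treatment protocol, and no group carried Cre alone. A genotype difference therefore cannot be divided between Cre at Olig2 and DA-Cat. The labels give day under developmental stage, but the protocol attached to every sample describes lesions made with 0.5 µL of 1% lysolecithin, a demyelinating lipid, in adults 8 to 10 weeks old, with cords taken either unlesioned or 14 days after the lesion. Every sample's description names the injection. From the labels alone it cannot be told what days 4 and 15 are counted from, or whether these samples were lesioned. The number of animals behind a sample is not stated in the labels, so the p-values measure the spread between these samples.

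BMP ligands bind pairs of type I and type II receptors, which phosphorylate SMAD1, SMAD5 and SMAD9, and these enter the nucleus with SMAD4. Noggin, the product of Nog, binds BMP ligands outside the cell and keeps them from their receptors. Id genes are direct SMAD targets, and Id proteins lack a DNA-binding region, so they hold back bHLH transcription factors by pairing with their partners. In the oligodendrocyte lineage, BMP signalling and the Id proteins are known for delaying differentiation and for favouring astrocyte fate.

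The upstream promoter windows are shown for the members with an available RefSeq entry whose level moved with genotype or day. Of the 10 members, 6 had an entry in the RefSeq promoter table (mouse GRCm38.p6), and Bmp2, Bmp7, Nog and Id1 are named only. Each window holds the 250 bases before the annotated start, read 5′ to 3′ on the gene's strand. Bmp4 lies at chr14:46390670-46390919 on the minus strand, and Id2 at chr12:25096093-25096342 on the minus strand. Id3 lies at chr4:136143572-136143821 and Id4 at chr13:48260866-48261115, both on the plus strand. Capitals mark GGCGCC, a GC-rich SMAD-binding form known from Id promoters, or CACGTG, an E-box.
Bmp4: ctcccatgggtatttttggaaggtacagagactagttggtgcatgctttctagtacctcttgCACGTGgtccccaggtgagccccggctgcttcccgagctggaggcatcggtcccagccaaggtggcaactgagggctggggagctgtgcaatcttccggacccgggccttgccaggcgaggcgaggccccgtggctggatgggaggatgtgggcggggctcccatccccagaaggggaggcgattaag
Id2: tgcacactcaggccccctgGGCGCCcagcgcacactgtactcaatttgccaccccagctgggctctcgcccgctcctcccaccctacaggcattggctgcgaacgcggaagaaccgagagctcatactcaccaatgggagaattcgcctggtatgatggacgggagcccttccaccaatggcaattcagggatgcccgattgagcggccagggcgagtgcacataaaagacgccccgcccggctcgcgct
Id3: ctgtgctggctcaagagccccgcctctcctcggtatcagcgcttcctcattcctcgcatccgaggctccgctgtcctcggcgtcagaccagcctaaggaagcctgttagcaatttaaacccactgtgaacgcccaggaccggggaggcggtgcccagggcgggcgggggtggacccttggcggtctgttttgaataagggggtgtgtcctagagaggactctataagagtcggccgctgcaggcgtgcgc
Id4: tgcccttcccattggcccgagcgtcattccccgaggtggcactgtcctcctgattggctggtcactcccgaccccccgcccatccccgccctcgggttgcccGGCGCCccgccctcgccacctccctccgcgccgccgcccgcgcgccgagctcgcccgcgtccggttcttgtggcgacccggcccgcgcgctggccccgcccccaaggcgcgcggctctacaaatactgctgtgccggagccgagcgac
Id2 and Id4 each held GGCGCC, first base 231 and 148 bases before the start, and the Id3 window held none of the searched motifs. GGCGCC, which reads the same on both strands, was in 9.59% of the 32817 promoter windows of this length. The Bmp4 window held CACGTG, also a palindrome, 188 bases before the start, a motif found in 6.02% of windows. The TCF and LEF partners of β-catenin bind forms of CTTTG followed by AT, AA, TT or TA, and none of these 4 forms was found on either strand in these 4 windows, and 14.8% of all windows held at least 1. The receptor genes, which passed no test, held such motifs as well. Bmpr1a had GGCGCC 198 bases before its start, and all 3 windows of Bmpr1b held CTTTGTT, which 2 of them share because they overlap. The motifs share no bases, and a match is a description of the letters only.

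Array medians lay between 6.14 and 6.19 on the deposited log2 scale, and the mean correlation within groups ran from 0.994 to 0.997. The median of 15 bacterial control probe sets was 3.07, and a group mean under 5 is called near background here. Of the 23 member probe sets, 18 were over that level in all groups, 3 were under it in all groups (Bmpr1a 1445413_at, Bmpr1b 1422872_at and 1443720_s_at), and Nog and Bmp7 1432410_a_at were under it in some. Ctnnb1, the β-catenin gene, was 0.05 lower in Olig2cre/DA-Cat at day 4 (adjusted p = 0.696) and 0.07 lower at day 15 (adjusted p = 0.693) by limma, and a stabilised protein need not change its mRNA. Olig2 fell in Olig2cre/DA-Cat by 0.90 at day 4 (adjusted p = 0.000171) and by 0.44 at day 15 (adjusted p = 0.0278). All 8 measured oligodendrocyte markers were called lower in Olig2cre/DA-Cat at day 4, with a median of -2.50, and 6 of 8 at day 15, with a median of -0.54. Markers of neurons averaged 12.60 to 12.92 per sample and none of the 7 was near background, although the labels also name ventrolateral white matter as the source. In tissue samples such as these, fewer cells of a type and less RNA per cell cannot be told apart.

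In Olig2cre/DA-Cat spinal cord at day 4, Bmp4 was the member called at the gene level, and it was lower. That call was lost without any one of 5 samples of day 4. A Bmp7 probe set, 1432410_a_at, passed as higher at day 4. At day 15 no member passed the test between genotypes. Across days, Bmp7, Nog and Id4 fell in both genotypes, Id3 fell in wild type, and Bmp4 and Id2 rose in Olig2cre/DA-Cat. The Id2 rise passed on its brightest probe set and not on its others. Bmp2, both receptors and Id1 passed no test. A gene was called when its Benjamini-Hochberg adjusted p over all 18194 genes was under 0.05 in a limma fit with 1 mean for each group.

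Bmp4 encodes a secreted ligand that signals through BMPR1A and BMPR1B and that precursor cells themselves can make. Its log2 signal was 8.34, 8.45 and 8.69 in wild type at day 4. The Olig2cre/DA-Cat samples of day 4 read 7.64, 7.76 and 7.88, so all 3 lay below every wild-type sample, as in 10.3% of all genes. At day 15 wild type read 8.52, 8.95 and 9.15. Olig2cre/DA-Cat at day 15 read 9.10, 9.49 and 9.19, which overlapped wild type through its highest sample. The order of group means thus placed Olig2cre/DA-Cat at day 4 lowest, apart from the others, and Olig2cre/DA-Cat at day 15 highest, with each neighbouring pair above the lowest group overlapping.

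At day 4 Bmp4 was 1.66-fold lower in Olig2cre/DA-Cat, a log2 difference of -0.73 ± 0.15 (SE, n = 3 per group, limma adjusted p = 0.0255). It was the 1 member called of 10, where 3.12% of all genes were called and 1.81% were called lower. The call depended on single samples: without any one of wild-type replicate 2 or 3 or Olig2cre/DA-Cat replicate 1, 2 or 3 of day 4, limma's adjusted p rose to between 0.0581 and 0.0864, with differences of -0.63 to -0.79. At day 15 the difference was +0.39 ± 0.15, with a limma adjusted p of 0.225. Among all 18194 genes 2.93% were called at day 15, and by limma 0 of 10 members were, with 3 at an unadjusted p under 0.05 (Bmp4, Bmp7 and Id1).

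Between the days Bmp4 rose 2.83-fold in Olig2cre/DA-Cat, by 1.50 ± 0.15 on the log2 scale (limma adjusted p = 5.34e-06), and the 3 samples of each day were fully apart. In wild type the same comparison gave +0.38 ± 0.15 (limma adjusted p = 0.0623), with overlapping samples. Without wild-type replicate 1 of day 15 it passed, at +0.56 (limma adjusted p = 0.0061), and likewise without wild-type replicate 3 of day 4, at +0.48 (limma adjusted p = 0.0407). Without wild-type replicate 3 of day 15 it was smaller, at +0.24 (limma adjusted p = 0.24). The genotype difference itself shifted by +1.12 ± 0.22 from day 4 to day 15, with a 95% interval of 0.64 to 1.59. That interaction had an unadjusted p of 0.000247 and a limma adjusted p of 0.06, so Bmp4 did not pass, while 0.352% of all genes did. With quantile normalization it was 1.17 with an adjusted p of 0.0352, and without wild-type replicate 3 of day 15 it was 1.26 with an adjusted p of 0.0255. Under the 19 alternatives run for the interaction its value ran from 0.94 to 1.26 and its adjusted p from 0.0153 to 0.146.

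**Figure D1:**
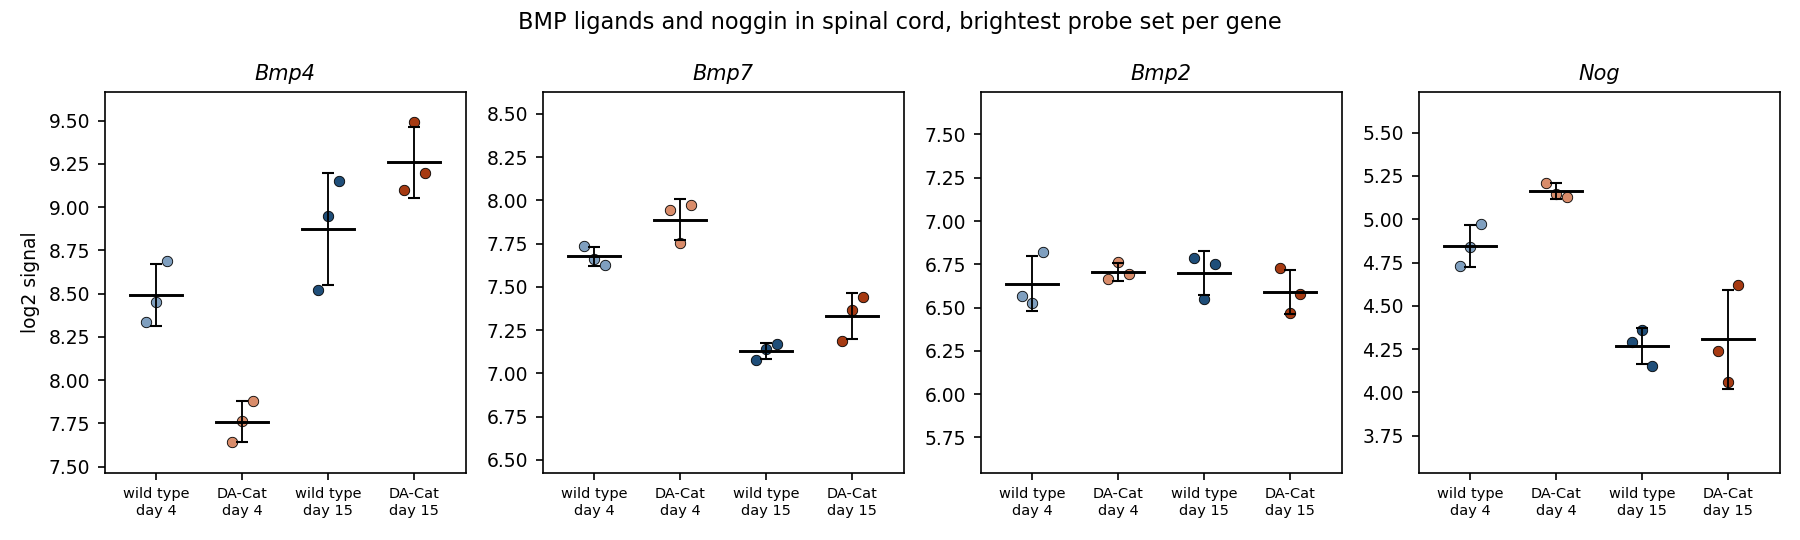
Log2 signal of Bmp4, Bmp7, Bmp2 and Nog in each of the 12 samples by group; points are samples, bars the mean and its SD (n = 3), and every panel spans the same range of log2 units. Bmp4 in Olig2cre/DA-Cat (DA-Cat) at day 4 lies below all other groups, and Bmp7 and Nog are lower at day 15 than at day 4 in both genotypes.

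Bmp7 encodes a ligand that pairs with BMP2 or BMP4 as a heterodimer as well as with itself. On its brightest probe set wild type read 7.74, 7.66 and 7.63 at day 4, and Olig2cre/DA-Cat read 7.94, 7.75 and 7.97. At day 15 wild type read 7.08, 7.14 and 7.17, and Olig2cre/DA-Cat read 7.19, 7.37 and 7.44. No neighbouring pair of groups overlapped, in the order wild type day 15, Olig2cre/DA-Cat day 15, wild type day 4 and Olig2cre/DA-Cat day 4. Bmp7 fell by 0.55 ± 0.08 in wild type (limma adjusted p = 0.000114) and by 0.56 ± 0.08 in Olig2cre/DA-Cat (limma adjusted p = 8.39e-05). The genotype differences of +0.21 at day 4 (limma adjusted p = 0.16) and +0.20 at day 15 (limma adjusted p = 0.221) did not pass.

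The other Bmp7 probe sets gave the same directions, and larger sizes. In the fit over all 45101 probe sets, 1418910_at fell by 0.92 for wild type and 0.97 for Olig2cre/DA-Cat, and 1432410_a_at fell by 0.72 and 0.96. At day 4 1432410_a_at read 5.26, 5.36 and 5.54 in wild type and 5.84, 5.78 and 6.05 in Olig2cre/DA-Cat, without overlap. That difference of +0.50 ± 0.10 passed (limma adjusted p = 0.0294), and with Bmp4 it made 2 of 23 member probe sets called at day 4, against 1.49% of all probe sets. The remaining Bmp7 probe set, 1418910_at, was +0.36 at day 4 with a limma adjusted p of 0.169, also without overlap. As the mean of its 3 probe sets, Bmp7 passed at the gene level (+0.36, limma adjusted p = 0.0391).

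Bmp2 encodes the ligand nearest in sequence to BMP4, and its 4 groups overlapped throughout. Its samples ranged from 6.47 to 6.82, and group means from 6.59 to 6.71. The genotype differences were +0.07 at day 4 (95% interval -0.14 to 0.27) and -0.11 at day 15 (95% interval -0.31 to 0.10).

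Nog was dim, which limits its values. Wild type read 4.73, 4.84 and 4.97 at day 4, and Olig2cre/DA-Cat read 5.21, 5.15 and 5.13, without overlap. At day 15 wild type read 4.29, 4.36 and 4.15, and Olig2cre/DA-Cat read 4.24, 4.06 and 4.62. Only Olig2cre/DA-Cat at day 4 had a mean over 5, and both day 15 groups lay below both day 4 groups. Nog fell by 0.58 ± 0.12 in wild type (limma adjusted p = 0.0016) and by 0.86 ± 0.12 in Olig2cre/DA-Cat (limma adjusted p = 7.14e-05). The genotype difference of +0.32 at day 4 did not pass (limma adjusted p = 0.166), and at day 15 it was +0.04 (limma adjusted p = 0.909).

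Both type I receptors, the serine and threonine kinases that phosphorylate the SMADs, passed no test on any probe set. Bmpr1a read from 9.93 to 10.11 over the 12 samples on its brightest probe set. Its largest difference was -0.09 ± 0.06 between the days in wild type, where the groups did not overlap (limma adjusted p = 0.235). Its genotype difference was 0.00 at day 4 (95% interval -0.12 to 0.13) and +0.04 at day 15 (95% interval -0.08 to 0.16). Of its 5 other probe sets, 4 were over background in all groups, and their differences over the 4 comparisons between groups lay between -0.23 and +0.11. Bmpr1b read from 7.96 to 8.16 on the 1 probe set above background, and its groups overlapped in all 4 comparisons. Its genotype difference was +0.02 at day 4 (95% interval -0.13 to 0.16) and +0.08 at day 15 (95% interval -0.07 to 0.22).

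**Figure D2:**
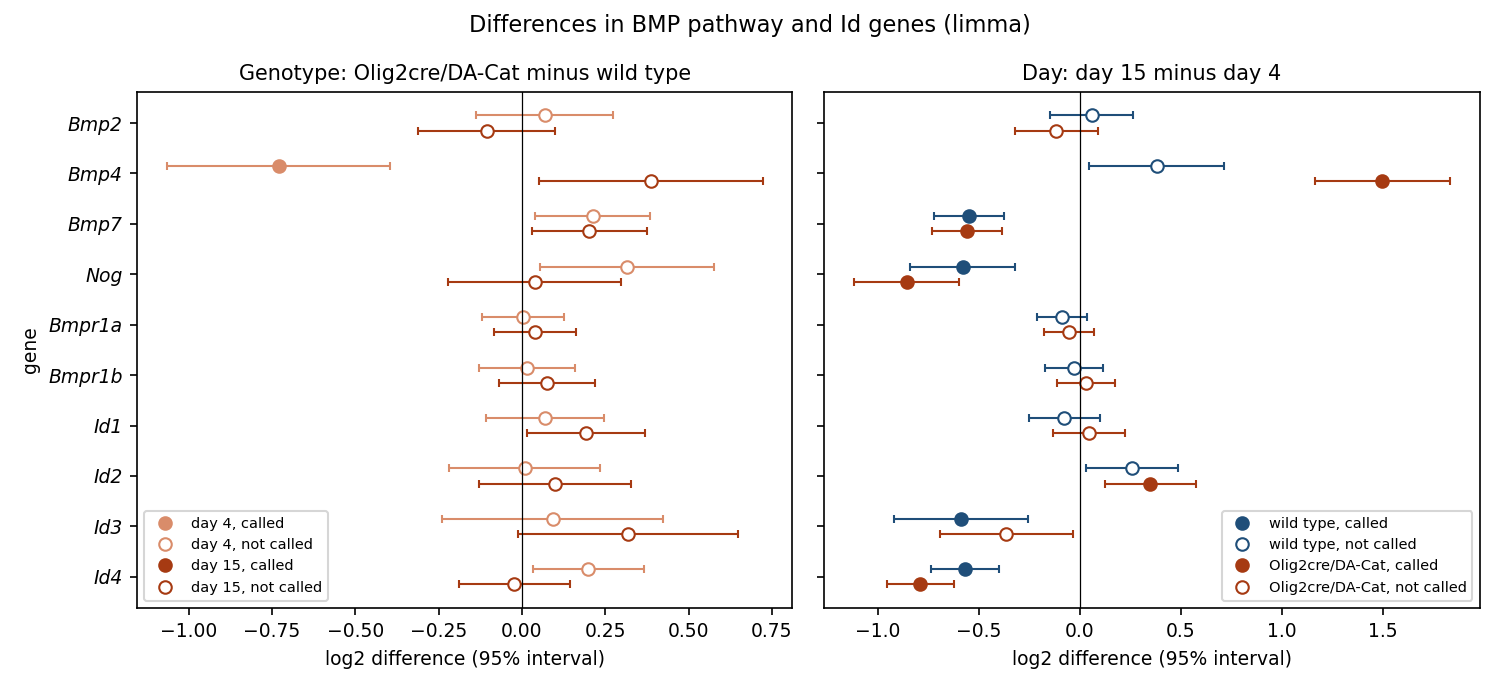
Log2 differences of the 10 members between genotypes (left; day 4 and day 15) and between days (right; wild type and Olig2cre/DA-Cat), with 95% intervals from limma; filled points passed an adjusted p of 0.05. Between genotypes 1 point is filled, Bmp4 at day 4, and between days 4 are filled for wild type and 5 for Olig2cre/DA-Cat.

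Between the days, 4 of 10 members fell in wild type and none rose, where 44.9% of all genes were called, 23.6% lower and 21.3% higher. In Olig2cre/DA-Cat 2 of 10 rose and 3 fell, where 48.1% of all genes were called, 21.8% higher and 26.3% lower. These shares lie near the background of all genes, so the counts alone set the members apart in no way. Of the 23 probe sets 8 were called for wild type and 9 for Olig2cre/DA-Cat, against 33.1% and 35.7% of all probe sets. Samples of the days were fully apart, day 15 lower, for 5 of 10 members for wild type and 3 for Olig2cre/DA-Cat, where 28.1% and 30.1% of all genes were. They were apart with day 15 higher for 1 and 2 members, where 25.3% and 26.1% of all genes were. The median difference of the members was -0.08 for either genotype, against -0.02 and 0.00 over all genes. Between genotypes the members' median was +0.07 at day 4 and +0.09 at day 15, against +0.03 and +0.02 over all genes. The 2 genotype comparisons share no samples, whereas each shares samples with the day comparisons.

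Id4, the family member best known for holding back oligodendrocyte differentiation downstream of BMP, had the narrowest spread of the Id genes in 3 of the 4 groups. Its samples read 11.36, 11.30 and 11.28 in wild type at day 4, and 11.47, 11.55 and 11.52 in Olig2cre/DA-Cat. At day 15 they read 10.75, 10.73 and 10.76 in wild type, and 10.76, 10.54 and 10.88 in Olig2cre/DA-Cat. The days were fully apart in both genotypes, and at day 4 so were the genotypes. Id4 fell by 0.57 ± 0.08 in wild type (limma adjusted p = 6.31e-05) and by 0.79 ± 0.08 in Olig2cre/DA-Cat (limma adjusted p = 3.33e-06).

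All 3 Id4 probe sets fell between the days in both genotypes. In wild type 1450928_at fell by 0.77 and 1423260_at by 0.57, and in Olig2cre/DA-Cat they fell by 0.98 and 0.92. At day 4 Id4 was +0.20 ± 0.08 higher in Olig2cre/DA-Cat on its brightest probe set, which did not pass (limma adjusted p = 0.171). On 1450928_at the difference was +0.14 (limma adjusted p = 0.418) and on 1423260_at +0.25 (limma adjusted p = 0.123), both with fully separate samples. At day 15 the 3 probe sets gave -0.02, -0.07 and -0.10. The shift of the genotype difference between days was -0.22 ± 0.11 at the gene level (limma adjusted p = 0.529), opposite in sign to that of Bmp4.

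**Figure D3:**
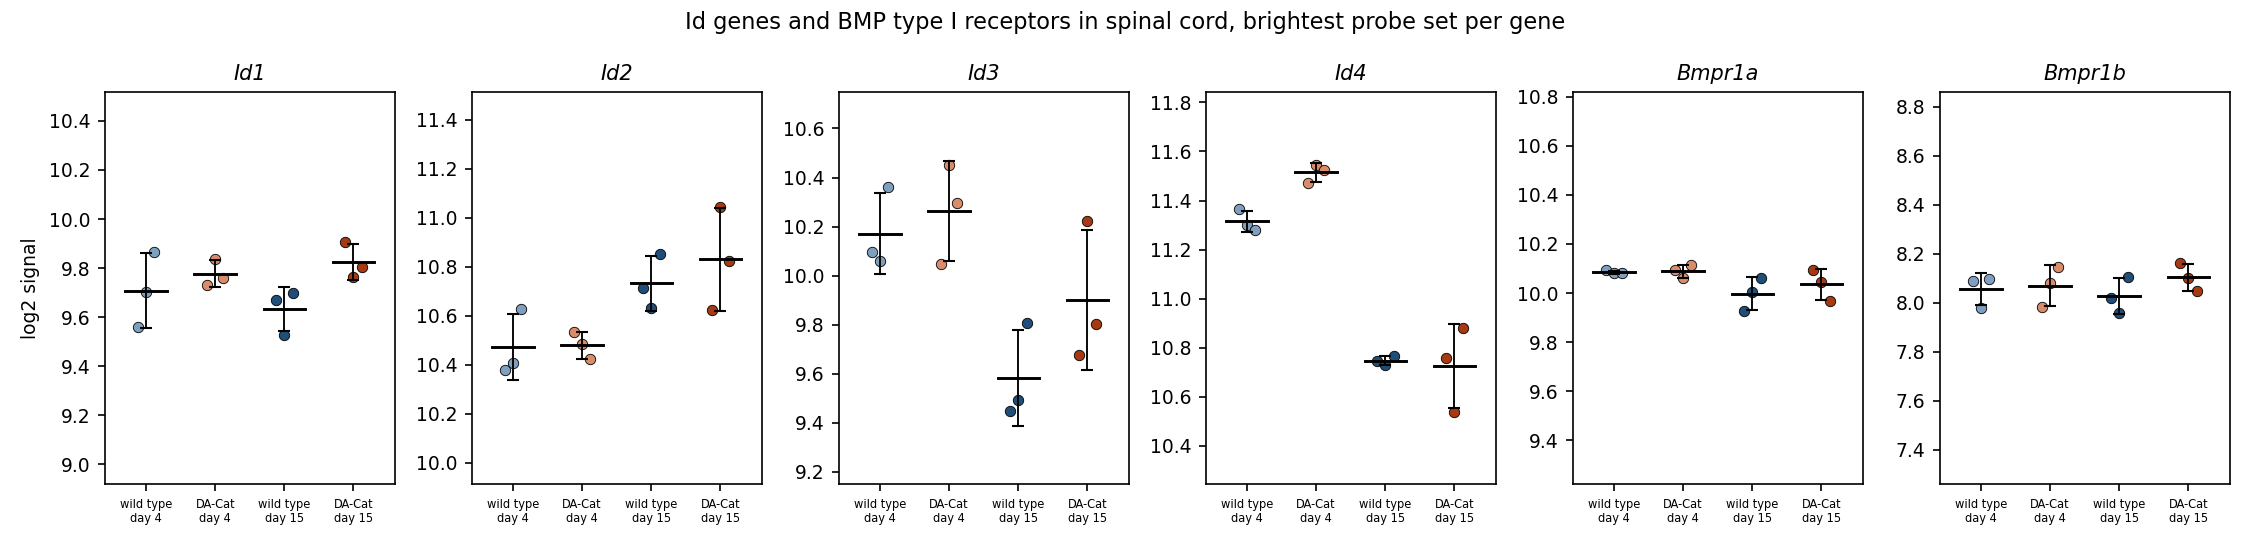
Log2 signal of the 4 Id genes and both type I receptors in each of the 12 samples by group; points are samples, bars the mean and its SD (n = 3), and every panel spans the same range of log2 units. Id4 and Id3 are lower at day 15 than at day 4. Id2 is higher on the probe set shown, and Id1, Bmpr1a and Bmpr1b stay within a narrow band. The Id3 fall passed the test in wild type and the Id2 rise in Olig2cre/DA-Cat.

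Id3, a direct SMAD target, read 10.10, 10.06 and 10.36 in wild type at day 4 and 10.05, 10.45 and 10.30 in Olig2cre/DA-Cat. At day 15 it read 9.45, 9.49 and 9.81 in wild type and 9.68, 10.22 and 9.80 in Olig2cre/DA-Cat. The wild-type days were fully apart, while replicate 2 of Olig2cre/DA-Cat at day 15 overlapped the day 4 samples. Id3 fell by 0.59 ± 0.15 in wild type (limma adjusted p = 0.00686). In Olig2cre/DA-Cat the difference was -0.36 ± 0.15 (limma adjusted p = 0.0675), and without that replicate 2 it was -0.52 (limma adjusted p = 0.00945). Without replicate 1 of Olig2cre/DA-Cat at day 4 it was -0.47 (limma adjusted p = 0.0339). Other samples moved it the other way, to -0.25 without replicate 1 of day 15 (limma adjusted p = 0.232) and to -0.27 without replicate 2 of day 4 (limma adjusted p = 0.222). The fall in Id3 was not shown to differ between genotypes, with an interaction of +0.23 ± 0.21 (limma adjusted p = 0.76).

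Id2, which also restrains oligodendrocyte differentiation, read 10.38, 10.41 and 10.63 in wild type at day 4 and 10.53, 10.48 and 10.42 in Olig2cre/DA-Cat. At day 15 it read 10.71, 10.63 and 10.85 in wild type and 10.62, 11.04 and 10.82 in Olig2cre/DA-Cat. The days did not overlap in either genotype, and the genotypes overlapped on both days. Id2 rose by 0.35 ± 0.10 in Olig2cre/DA-Cat (limma adjusted p = 0.0142), and the difference of +0.26 ± 0.10 in wild type did not pass (limma adjusted p = 0.0615). Leaving out Olig2cre/DA-Cat replicate 2 of day 15 or replicate 3 of day 4 ended the call, with differences of 0.24 and 0.32 and limma adjusted p-values of 0.0612 and 0.0508. In wild type Id2 passed with several other settings at the same +0.26, namely without the dimmest 30% of genes (limma adjusted p = 0.0453), with limma's trend and robust settings (adjusted p = 0.0373) and with only the groups compared (limma adjusted p = 0.0487). It also passed without any one of 3 samples, namely wild-type replicate 3 of day 4 (+0.34, limma adjusted p = 0.0283) and Olig2cre/DA-Cat replicates 1 and 2 of day 15 (limma adjusted p = 0.0318 and 0.03).

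The Id2 probe sets disagreed, and 1435176_a_at was nearly as bright as the probe set used for the gene. Its group means ran from 10.37 to 10.72, and those of the probe set used from 10.47 to 10.83. On 1435176_a_at Id2 read 10.99, 10.58 and 10.59 in wild type at day 4 and 10.47, 10.45 and 10.19 in Olig2cre/DA-Cat, so that the genotypes were apart. That difference was -0.35 ± 0.13 (limma adjusted p = 0.209), where the brightest probe set gave +0.01. Between the days the same probe set gave -0.01 for wild type and +0.29 for Olig2cre/DA-Cat (limma adjusted p = 0.962 and 0.106). The dimmer 1453596_at gave -0.23 and -0.08 (limma adjusted p = 0.292 and 0.725). With all 3 averaged, the rise in Olig2cre/DA-Cat was 0.18 and no longer passed (limma adjusted p = 0.118).

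**Figure D4:**
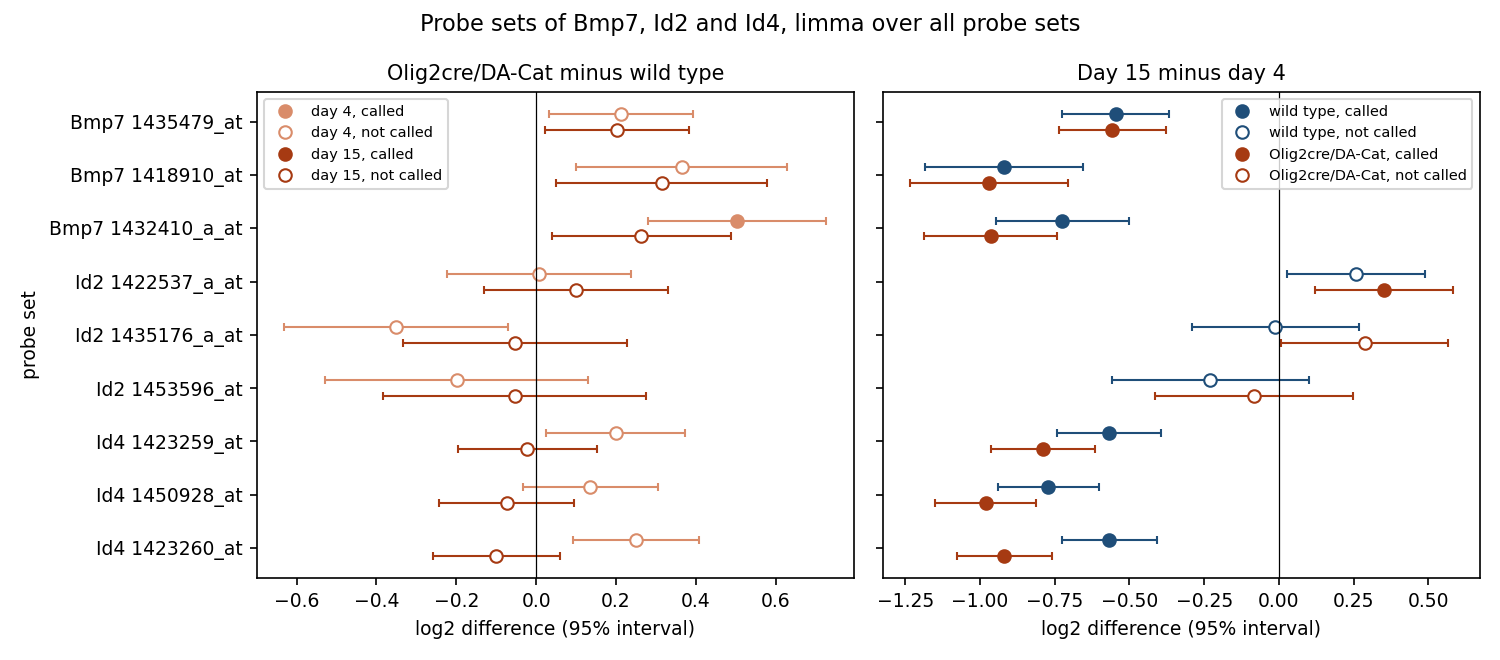
Log2 differences on each probe set of Bmp7, Id2 and Id4 between genotypes (left) and between days (right), with 95% intervals from limma fitted over all 45101 probe sets; filled points passed an adjusted p of 0.05. The 3 probe sets of Bmp7 and the 3 of Id4 fell between the days in both genotypes, whereas 1 of the 3 Id2 probe sets rose, in Olig2cre/DA-Cat.

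Id1, a direct SMAD target widely used as a readout of BMP signalling, passed no test. It read 9.56, 9.70 and 9.86 in wild type at day 4 and 9.73, 9.84 and 9.76 in Olig2cre/DA-Cat. At day 15 it read 9.67, 9.53 and 9.70 in wild type and 9.91, 9.76 and 9.80 in Olig2cre/DA-Cat. The genotypes were apart at day 15 and overlapped at day 4. The difference at day 15 was +0.19 ± 0.08 (limma adjusted p = 0.254) and at day 4 +0.07 ± 0.08 (limma adjusted p = 0.662). Samples of the genotypes were fully separate, with Olig2cre/DA-Cat higher, for Bmp7, Nog and Id4 at day 4, where 18.8% of all genes were, and for Bmp7 and Id1 at day 15, where 10.6% were.

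Markers of meninges and fibroblasts, tissue that itself makes BMP ligands, differed between samples and between days, as several members did. The mean log2 signal of their 6 genes, none near background, ran from 10.48 to 11.13 in wild type and from 10.87 to 11.35 in Olig2cre/DA-Cat at day 4. At day 15 it read 9.24, 9.47 and 10.46 in wild type, and 10.54, 10.67 and 10.15 in Olig2cre/DA-Cat. Of the 6, 4 were called lower between the days for wild type and 2 for Olig2cre/DA-Cat, where 23.6% and 26.3% of all genes were. Dcn and Lum were called between the days in neither genotype, and none of the 6 was called between genotypes. Within groups the members followed the markers in some cases and not in others. In wild type at day 15 replicate 3 was highest for the markers and for 8 of 10 members, and in Olig2cre/DA-Cat at day 15 replicate 2 was highest for the markers, Bmp4, Id2 and Id3. In wild type at day 4, however, the sample with the highest markers, replicate 2, had the lowest Id3. Bmp7 was lowest in the Olig2cre/DA-Cat sample of day 4 with the highest markers and highest in that of day 15 with the lowest markers.

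With the marker level as a covariate in limma, the Bmp4 difference at day 4 was -0.83 (adjusted p = 0.00484) and at day 15 +0.12 (adjusted p = 0.774). The wild-type day difference of Bmp4 became +0.78 and passed (adjusted p = 0.00906), and that of Id3 became -0.24 and no longer passed (adjusted p = 0.413). The Id3 difference between days in Olig2cre/DA-Cat became -0.16 (adjusted p = 0.466). In both genotypes the marker level was fully apart between the days, so for day differences this covariate cannot separate day from marker level. Bmp7 and Id4 still fell between the days in wild type with it, by 0.60 (adjusted p = 0.00398) and 0.62 (adjusted p = 0.00247). Skeletal muscle markers varied from 5.08 to 10.01 between samples and within every group, and with their level as a covariate Bmp4 was -0.71 at day 4 (adjusted p = 0.0471).

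**Figure D5:**
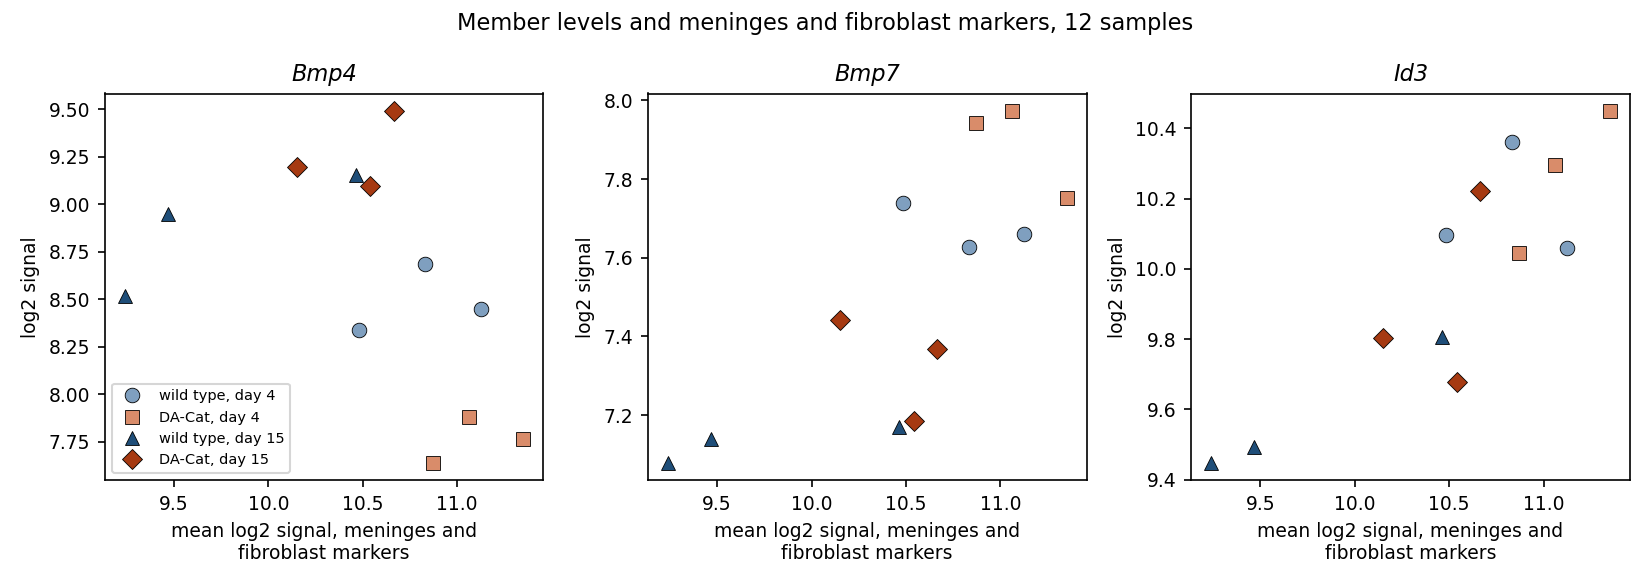
Log2 signal of Bmp4, Bmp7 and Id3 (vertical) against the mean log2 signal of 6 meninges and fibroblast markers (horizontal) in the 12 samples, with colour and symbol for the group. The wild-type samples of day 15 at 9.24 and 9.47 on the horizontal axis are also those with the lowest Id3, at 9.45 and 9.49, whereas the wild-type sample of day 4 at 11.13 has the lowest Id3 of its group, at 10.06.

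Of 82 other genes listed beside the members, 76 were measured. These 76 include 10 bHLH partners of the Id proteins, which are not part of the BMP pathway itself. At day 4, 1 was called higher and 3 lower, or 5.26% of the 76, where 3.12% of all genes were called. At day 15 the counts were also 1 and 3, where 2.93% of all genes were called, and the medians were +0.05 and +0.03. The genes called lower included 2 of the bHLH partners at day 4, Olig1 and Olig2, and 1 at day 15, Olig2. With 4 genes on each day, nothing particular to the pathway is read from these counts. Smad7, whose product blocks receptor signalling from inside the cell, fell in Olig2cre/DA-Cat by 0.48 at day 4 (limma adjusted p = 0.00824) and by 0.65 at day 15 (limma adjusted p = 0.00151). Smad5, a transducer of the BMP signal, was 0.41 higher at day 4 (limma adjusted p = 0.0023). Hey1 was 0.29 higher (limma adjusted p = 0.017) and Neo1, which encodes the co-receptor neogenin, fell by 0.39 (limma adjusted p = 0.0285) at day 15. No gene of these lists passed for the interaction with limma.

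Across days 29 of the 76 other listed genes, bHLH partners included, were called lower in wild type and 6 higher, or 38.2% and 7.89%. Of all genes 23.6% were called lower and 21.3% higher. In Olig2cre/DA-Cat 28 were called lower and 10 higher, or 36.8% and 13.2%, where 26.3% of all genes were called lower and 21.8% higher. The bHLH partners gave 3 of those called lower and 1 called higher in wild type, and 3 and 3 in Olig2cre/DA-Cat. The medians of the 76 were -0.09 and -0.12, and the list was not tested against all genes. Among receptors, Acvr2a and Acvr2b, type II receptors, fell in both genotypes, Acvr2a by 1.18 for wild type and 1.36 for Olig2cre/DA-Cat. Rgma, which encodes a co-receptor, fell by 0.97 and 1.48. Among the 6 SMAD genes 3 fell in each genotype, Smad1, Smad4 and Smad5, and Smad7 rose by 1.15 for wild type and 0.97 for Olig2cre/DA-Cat. Gdf10 fell by 1.04 in both genotypes, and Bmp6 by 0.48 and 0.73.

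Of the genes listed as antagonists other than Nog, 8 of 17 were called lower in wild type and 6 of 17 in Olig2cre/DA-Cat. None was called higher, where 23.6% and 26.3% of all genes were called lower and 21.3% and 21.8% higher. The list also holds genes whose products are not BMP inhibitors, Kcp and Tll1 among them, so these are not counts of inhibitors alone. Sostdc1 fell by 1.76 and 1.45, and Fst, the gene of follistatin, by 0.67 and 0.71. Of 11 other response genes, Hes5, Hey2 and Hes1 fell in both genotypes and Hey1 rose, by 0.28 for wild type and 0.50 for Olig2cre/DA-Cat. Hes5 fell by 1.51 and 1.61; Hes and Hey genes are also read out by Notch. Of 11 modulators, 3 rose and 3 fell in wild type and 2 and 4 in Olig2cre/DA-Cat, among them Zeb2, which encodes a SMAD-binding repressor and rose by 1.36 and 1.05.

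Among 10 measured bHLH factors that Id proteins can hold back directly or through shared E-protein partners, Olig2 and Olig1 were called lower in Olig2cre/DA-Cat at day 4, Olig1 by 0.44 (limma adjusted p = 0.0111). Of these 10, Olig2 alone was called at day 15. Between the days Olig1 rose by 0.41 in wild type (limma adjusted p = 0.00108) and by 0.59 in Olig2cre/DA-Cat (limma adjusted p = 5.9e-05). Neurod1 fell by 1.31 and 1.22, and Olig3 by 1.16 and 1.30. Olig2 rose by 0.67 in Olig2cre/DA-Cat (limma adjusted p = 9.13e-05).

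Of 6 genes listed as oligodendrocyte precursor markers, 3 were called lower in Olig2cre/DA-Cat at day 4, where 1.81% of all genes were. These were Gpr17 (-1.41, limma adjusted p = 0.000681), Sox10 (-1.06, limma adjusted p = 0.000448) and C1ql1 (-0.42, limma adjusted p = 0.002). Gpr17 and Sox10 are not limited to precursors. Pdgfra (-0.24, limma adjusted p = 0.138), Cspg4 (-0.18, limma adjusted p = 0.397) and Ptprz1 (-0.16, limma adjusted p = 0.341) did not pass. The mean log2 signal of the 6, none near background, ran from 9.37 to 9.44 in wild type and from 8.80 to 8.87 in Olig2cre/DA-Cat. Gpr17 and Sox10 had the largest differences in that mean, so it does not measure precursors alone. At day 15 the ranges were 9.08 to 9.41 and 8.93 to 9.23, and 1 of the 6, Sox10, was called lower. Astrocyte markers ran from 11.68 to 11.80 and from 11.50 to 11.67 at day 4, where 2 of 9 were called lower. The part of these cell types in the Bmp4 difference was not tested.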

How the data were processed

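Total RNA of 12 mouse spinal cord samples was labelled with biotin and measured on 1 array each, per the labels. The authors deposited 1 log2 signal for each of 45101 probe sets and sample; the background correction, summarisation and normalization behind these log2 values are not given in the sources used here. Array number and signal over background limit the precision.

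Probe sets were named through the platform annotation: 34958 had 1 symbol, 932 several and 9211 none. Of those with 1 symbol, 34754 matched RefSeq and 0 changed name. The gene's probe set with the highest mean over 12 samples was used. limma 3.58.1 in R 4.3.3 fitted 1 mean for each of 4 groups over 18194 genes, and again over all probe sets, with Benjamini-Hochberg adjustment and a threshold of 0.05. Differences are in log2 units with the fit's SE (8 residual and 3.96 prior degrees of freedom), and all p-values are two-sided. The fit was tested on simulated data with independent noise for each gene. Differences in tissue content between samples were not simulated, and no result here rests on that test.

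The members, the background level of 5 and all gene lists were chosen with earlier results of these data known. Named genes are all members, and from each pathway list up to 4 with the smallest p among those called in a comparison; likeness to a member is Pearson's r over 12 samples. Some listed genes are not reported here. Alternatives were quantile normalization, leaving out the dimmest 30% of genes, trend and robust settings, the mean of all probe sets, only the groups compared, a replicate block, 2 marker covariates and each sample left out. Python 3.11.15 was used for tables and figures.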

Additional observations from a re-analysis of the deposited data

How the results depend on the processing

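Of 985 values for the members under 20 alternatives, 918 kept their direction and side of the threshold, 9 lost a call, 20 gained one and 38 changed sign. No value that changed sign was called in either fit, and their lowest adjusted p by limma was 0.3. The count of members called at day 4 was 2 with the mean of all probe sets and 0 to 1 with a sample left out. For the interaction it was 1, Bmp4, with quantile normalization, without the dimmest 30% of genes, with trend and robust settings and with the replicate block, and 0 to 1 with a sample left out. Replicate numbers showed no common pairing over all groups: deviations of 18 same-number pairs correlated from -0.343 to 0.297, 5 over 0.1. Between genotypes of the same day, same-number pairs were all positive. They read 0.263, 0.297 and 0.031 at day 4 and 0.165, 0.175 and 0.015 at day 15. Different-number pairs of the same day ran from -0.307 to 0.079. A pairing within a day was not tested, since the replicate block spans both days. With the replicate block Bmp4 passed for the interaction (1.12, adjusted p = 0.0153) and between days in wild type (0.38, adjusted p = 0.0162), and Id3 between days in Olig2cre/DA-Cat (-0.36, adjusted p = 0.0418).

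The sign changed as follows, the cause not being tested. With quantile normalization, the day 4 genotype differences of Bmpr1a, Bmpr1b and Id2 were -0.0368, -0.0346 and -0.0343, and the Bmp7 interaction was 0.0284. With the mean of all probe sets, Bmpr1b and Id2 at day 4 were -0.0064 and -0.181, and Id2 at day 15 was -0.0027. With the meninges and fibroblast covariate, Bmpr1a, Bmpr1b and Id2 at day 4 were -0.0166, -0.0039 and -0.0256. With it Bmpr1a and Id4 at day 15 were -0.0138 and 0.0162, Bmpr1b and Id1 between days in wild type were 0.0455 and 0.0355, and the Bmp7 interaction was 0.0107, and 0.0143 with the muscle covariate. With a sample left out, the genotype differences at day 4 ran from -0.0082 to 0.0178 for Bmpr1a, -0.0231 to 0.0586 for Bmpr1b, -0.0056 to 0.148 for Id1, -0.0382 to 0.0858 for Id2 and -0.0009 to 0.201 for Id3. At day 15 they ran from -0.118 to 0.162 for Nog, -0.0075 to 0.203 for Id2 and -0.0988 to 0.0712 for Id4. Between days the ranges were -0.0677 to 0.0071 for Bmpr1b and -0.151 to 0.0019 for Id1 in wild type, and -0.0102 to 0.0715 for Bmpr1b in Olig2cre/DA-Cat. The interaction ran from -0.0795 to 0.0624 for Bmp7, -0.0003 to 0.0692 for Bmpr1a and -0.0152 to 0.195 for Id2.

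Nog was dim enough to be left out with the dimmest 30% of genes. Depth here is signal over background: Nog and 4 other member probe sets lay near it in some or all groups, which compresses differences. With 3 samples in a group, leaving out 1 sample ended the day 4 call of Bmp4 for 5 of the 12 samples.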

Other observations

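The genes most like each member over the 12 samples are given as Pearson's r, as a description: the samples share their groups, and 44.9% and 48.1% of all genes were called between the days, so high values are common. For Bmp4 they were Atp13a5 (r = 0.97), Cyb5a (r = 0.95) and S100a13 (r = 0.95). For Id4 they were Msl1, Zfhx3 and Lmx1b, each at r = 0.99. Bmp7 was most like Tmem169 (r = 0.98), Nog most like Tox (r = 0.98), Id3 most like Selenow (r = 0.95) and Id2 most like Micos13 (r = 0.95). For the members that passed no test, the closest were Bmpr1a with Ptgds (r = 0.92), Bmp2 with Rfwd3 (r = 0.87), Id1 with Crip1 (r = 0.87) and Bmpr1b with Fgl2 (r = 0.80).

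Within groups, replicate 3 was highest for most members in wild type, for 7 of 10 at day 4 and 8 of 10 at day 15, and Bmp4, Id2 and Id3 were among them on both days. In Olig2cre/DA-Cat at day 15 replicate 2 was highest for 3 members, Bmp4, Id2 and Id3. In Olig2cre/DA-Cat at day 4 the highest samples were replicate 3 for Bmp4, replicate 1 for Id2 and replicate 2 for Id3.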
